A study of Homo sapiens with 4 samples.

Results

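The long noncoding RNAs described here lie around the MYC gene on the long arm of human chromosome 8. They were chosen by name, not by value, though with earlier results of these data known: PVT1, CCAT1, CASC8, CASC11, CASC19 and PCAT1. Of these 6 names, 5 are gene names in GENCODE release 29, and those 5 genes hold 143 of the 106179 transcripts in the deposited table. CASC19 supplied 84 of the transcripts, PCAT1 32, PVT1 20, CASC8 4 and CASC11 3. A count was present in at least 1 library for 95 of the 143 transcripts, 48 had none in any library, and 60 passed the filter on low counts.

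The study set HepG2 cells resistant to oxaliplatin against wild-type HepG2 cells, with 2 libraries of each, to find long intergenic noncoding RNAs that differ between them. HepG2 is an established human liver cancer line, and oxaliplatin is a platinum drug that binds DNA. Both groups share the line, the medium with serum and antibiotics, and the absence of any treatment in the labels. The resistant cells were screened for resistance to the drug, with no dose, duration or number of clones given, and nothing in the labels tells whether a group's 2 libraries are separate cultures. The p-values here therefore reflect library-to-library spread, possibly technical only.

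MYC encodes a transcription factor that drives growth and division, and its surroundings on chromosome 8 hold enhancers, many cancer risk variants and several long noncoding RNAs. PVT1 lies downstream of MYC, is often co-amplified with it in tumours, hosts microRNAs and produces many spliced isoforms as well as a circular RNA. Its promoter is known to compete with that of MYC for shared enhancers, and PVT1 RNA has been described as raising MYC protein levels in several cancers, liver cancer among them. CCAT1, CASC8, CASC11, CASC19 and PCAT1 lie upstream of MYC. CCAT1 was described in colon cancer, where a long form of it is transcribed from an enhancer that contacts MYC; PCAT1 was described in prostate cancer.

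In GENCODE release 29, on the GRCh38 assembly, PVT1 (ENSG00000249859) spans chr8:127794533-128101253 on the plus strand and begins 59.1 kb downstream of the start of MYC. CASC11 (ENSG00000249375) spans chr8:127686343-127733967 on the minus strand and ends, at its transcription start, 1.47 kb upstream of MYC. CASC8 (ENSG00000246228) spans chr8:127289817-127482139 and CASC19 (ENSG00000254166) chr8:127072694-127227541, both on the minus strand. PCAT1 (ENSG00000253438) spans chr8:126556323-127419050 on the plus strand and so overlaps the whole of CASC19 and a part of CASC8, although no exonic base of a counted transcript was shared among the members. PCAT1 shared 827 exonic bases with POU5F1B on its own strand and 197 with FAM84B on the other strand, and CASC19 shared 162 with PRNCR1 on the other strand. On its own strand PVT1 shared 194 with RF02164, 95 with RF02166 and 67 with MIR1204. On the other strand it shared 111 with AC103705.1 and 63 with RNU4-25P. Whether the counting used strand is not given in the sources used here, so reads in these stretches cannot be assigned to a strand.

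**Figure D1:**
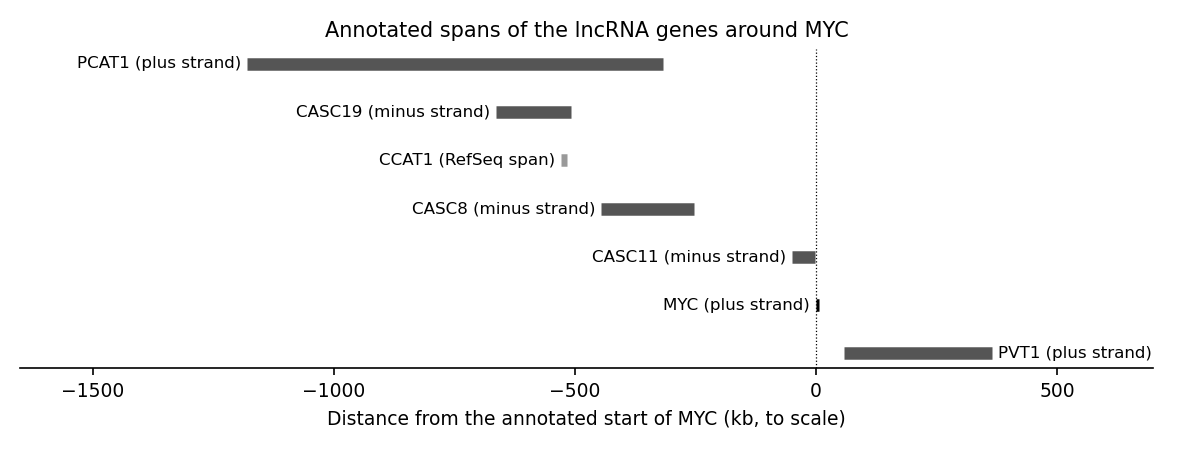
Spans, drawn to scale, of the named lncRNA genes relative to the start of MYC, in kb along chromosome 8, with strand where the annotation used gives it. PVT1 lies to the right of MYC, the other genes to its left, and the CCAT1 interval lies inside CASC19.

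CCAT1 is not a gene name in release 29 and therefore has no transcripts of its own here. In the RefSeq annotation of GRCh38.p14 it occupies chr8:127207382-127219268, inside CASC19. The end of that interval at the higher coordinate falls beside the annotated starts of 34 CASC19 transcripts, each within 500 bases of it. No CASC19 transcript lies wholly inside the interval and 40 have an exon in it, so the counts of these 34 transcripts are given below as CASC19 counts that start at CCAT1, not as CCAT1.

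The deposited values are estimated counts per transcript, with totals of 43473826 and 44063444 in the resistant libraries and 38113398 and 34898860 in the wild-type libraries. Levels are given in CPM, counts per 1000000 counts of the library after TMM scaling. A limit of 3 counts for a value of 0 corresponds to between 0.0660 and 0.0908 CPM for a transcript and between 0.0798 and 0.110 CPM for a gene sum. The limit covers counting error only, not the division of reads among isoforms, so fold bounds that rest on it do not cover that either. No gene, transcript or start class in the whole table passed an adjusted p of 0.05 in edgeR's quasi-likelihood test, and the smallest adjusted p among genes was 0.323. Coding hepatocyte markers could be checked only through their noncoding transcripts, and the lncRNA markers of the list directly. Of 21 marker names 14 were in the table, and 10 of those had a count of 0 in every library. Among the 10 were AFP, TTR and SERPINA1, and the lncRNAs FAM99A, FAM99B and LINC01093. ALB had 8 counts in wild-type library 1 and 0 elsewhere. The lncRNA LINC01554 had 23 and 16 counts in resistant cells, against 5 and 8 in wild-type cells. The summed level of the list, nearly all of it H19, was 159 and 140 CPM in resistant cells, against 219 and 301 CPM in wild-type cells. Of 10 fibroblast and endothelial marker names 9 were in the table and 2 were at 0 everywhere, with summed levels of 86.7 and 77.7 CPM in resistant cells and 113 and 165 CPM in wild-type cells, led by VIM. Of 5 blood marker names 4 were in the table and 3 were at 0 everywhere. The part of these marker levels in the results was not tested.

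None of the 5 lncRNA genes passed the test as a gene sum, and all 5 fitted fold changes were below 0. PVT1 and CASC19 were the most abundant, CASC11 the least. In CASC19, PCAT1 and CASC8 both resistant libraries lay below both wild-type libraries; in PVT1 and CASC11 the groups overlapped. Over the whole data 0.00% of 13745 tested genes passed at an adjusted p of 0.05, 8.67% had an unadjusted p under 0.05, 20.5% were lower in resistant cells without overlap and 49.2% had a fold change below 0. At an unadjusted p under 0.05, 4.74% of genes were higher and 3.93% lower, and 43.0% of genes had groups that did not overlap, with 22.5% of genes higher in that way. Against that background 0 of the 5 genes had an unadjusted p under 0.05, 3 were lower without overlap and 0 were called by DESeq2, which called 4.60% of all genes. The median log2 fold change was -0.62 over the 5 genes and 0.01 over all tested genes. Together the members held 0.357% and 0.167% of all counts in the resistant libraries, against 0.375% and 0.371% in the wild-type libraries, and resistant library 2, where the CASC19 sum was low, stood lowest. In bulk RNA, fewer cells with a transcript and less of it per cell cannot be told apart.

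PVT1 had 1988 and 1343 CPM in resistant cells, against 1682 and 2326 CPM in wild-type cells. The groups overlapped, with the highest value in wild-type library 2 and the lowest in resistant library 2. The means were 1665 ± 456 CPM in resistant cells and 2004 ± 455 CPM in wild-type cells (SD, n = 2 each), so that the log2 fold change was -0.27 ± 0.33 (SE), with an adjusted p of 0.876 from edgeR. It was -0.0041 without resistant library 2, -0.015 without wild-type library 2, -0.58 without resistant library 1 and -0.48 without wild-type library 1.

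CASC19, a lncRNA named for its place in a cancer susceptibility region, had 1932 and 372 CPM in resistant cells, against 2564 and 2125 CPM in wild-type cells. Resistant library 1 was close to the wild-type libraries and resistant library 2 was far below all the others. The means were 1152 ± 1103 CPM in resistant cells and 2344 ± 311 CPM in wild-type cells (SD, n = 2 each), so that the log2 fold change was -1.02 ± 0.87 (SE), with an adjusted p of 0.810 from edgeR. The value was decided by resistant library 2: it was -0.27 without that library and -2.65 without resistant library 1.

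PCAT1 had 167 and 239 CPM in resistant cells, against 493 and 250 CPM in wild-type cells. The groups did not overlap, but resistant library 2 and wild-type library 2 were nearly level. The log2 fold change was -0.87 ± 0.46 (SE; by edgeR, adjusted p = 0.699), and it was -0.30 without wild-type library 1. CASC8 had 43.7 and 46.5 CPM in resistant cells, against 90.3 and 48.4 CPM in wild-type cells. Here too wild-type library 1 alone stood clear of the rest: the log2 fold change of -0.62 ± 0.41 (SE; by edgeR, adjusted p = 0.753) became -0.10 without it and -1.001 without wild-type library 2. CASC11, the lncRNA nearest to MYC, had 4.10 and 7.73 CPM in resistant cells, against 6.19 and 6.32 CPM in wild-type cells, and the wild-type values lay between the resistant ones. Its log2 fold change of -0.08 ± 0.49 (SE; by edgeR, adjusted p = 0.978) became 0.31 without resistant library 1 and -0.60 without resistant library 2.

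**Figure D2:**
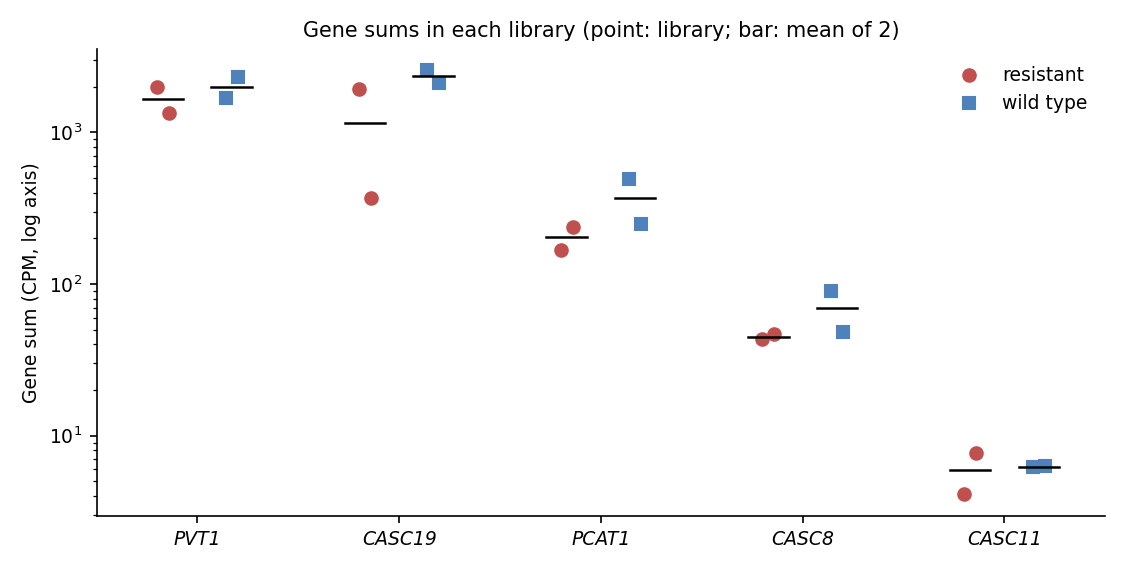
Gene sums in CPM on a log axis for each library, resistant cells left of wild-type cells, with points for libraries and bars for group means (n = 2). CASC19 in resistant library 2 stands lowest of its 4 values at 372 CPM, and PVT1 and CASC11 overlap between groups.

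Dividing each transcript's counts by its length allows levels to be set side by side. On this scale of counts per kb of transcript per 1000000 library counts, without TMM scaling, PVT1 stood at 1681 ± 391 in resistant cells and 1898 ± 365 in wild-type cells, ranking 24 of 13745 genes by its mean. Ranks and the median here are those of a table of noncoding transcripts, where a coding gene counts only by its noncoding transcripts. CASC19 stood at 1108 ± 1152 and 1868 ± 48.2 on the same scale in resistant and in wild-type cells, and ranked 33. The 2 genes did not differ in level beyond their spread in either group. In resistant cells the gap between CASC19 and PCAT1 was also smaller than the SD of CASC19. PCAT1 ranked 660 with 167 ± 29.8 in resistant cells and 283 ± 50.3 in wild-type cells. CASC8 ranked 2890 with 42.8 ± 4.32 in resistant cells and 55.9 ± 22.9 in wild-type cells. CASC11, at 5.19 ± 2.06 in resistant cells and 5.08 ± 1.15 in wild-type cells, ranked 8128 and lay below the median gene, which was at 9.07 (SD, n = 2 each throughout).

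The difference between replicates of a group put these genes in context. In resistant cells the CASC19 libraries differed by 2.38 on the log2 scale, more than 94.8% of the 6867 genes set beside them, where the median was 0.40. Those genes had a mean of at least 10 CPM, a level that CASC11 did not reach. In the same cells the CASC8 libraries differed by 0.09, those of PCAT1 by 0.51, those of PVT1 by 0.57 and those of CASC11 by 0.90. In wild-type cells, where the median gene differed by 0.46, PCAT1 differed by 0.98, CASC8 by 0.90, PVT1 by 0.47, CASC19 by 0.27 and CASC11 by 0.03.

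Among the transcripts, 0 of the 60 members tested passed an adjusted p of 0.05, as did 0.00% of all 42393 tested. An unadjusted p under 0.05 was found for 10 member transcripts that were lower and 3 that were higher in resistant cells, against 3.18% and 4.56% of all transcripts and 7.74% in either direction. The resistant libraries were both below the wild-type libraries in 22 member transcripts, against 18.9% of all, and both above in 3, against 21.4% of all, together 25 against 40.3%. A fold change below 0 was found for 47 of the 60, against 48.9% of all, and the median log2 fold change was -1.09 over the 60 and 0.02 over all. DESeq2 called 9 lower and 3 higher, and 5.33% of all transcripts. These counts describe the transcripts that passed the filter: a transcript high in a single group could pass through that group alone, and isoforms of a gene share reads and are not independent. CASC19 dominated the lower ones, with 27 of its 29 tested transcripts below 0 and 8 at an unadjusted p under 0.05, whereas the 16 tested PVT1 transcripts had 8 fold changes on each side of 0.

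PVT1 was led in every library by ENST00000521951, a spliced isoform from the main upstream start. It had 32112 and 21388 counts in resistant cells, against 31391 and 26874 in wild-type cells, making 43.0% and 43.5% of PVT1 counts in resistant cells and 63.1% and 42.4% in wild-type cells. Its share was highest in wild-type library 1 and close to level in the other 3 libraries. Relative to depth both resistant libraries were below both wild-type libraries, with a log2 fold change of -0.50 ± 0.32 (SE; by edgeR, adjusted p = 0.905).

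Wild-type library 1 also stood apart in the next most abundant PVT1 isoforms. ENST00000523068 had 15002 and 5211 counts in resistant cells, against 0 and 11194 in wild-type cells. ENST00000513868 had 8165 and 6953 counts in resistant cells, against 0 and 5663 in wild-type cells. Both were absent from the estimates of wild-type library 1 and among the leading isoforms in the other 3 libraries. ENST00000522963 had 7879 and 3555 counts in resistant cells, against 4212 and 9751 in wild-type cells, and ENST00000523427 had 4633 and 2087, against 4508 and 3302. ENST00000521122 was the most even of the 6, with 3757 and 3513 counts in resistant cells and 4139 and 2942 in wild-type cells.

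A pair of minor PVT1 isoforms had unadjusted p-values under 0.05 and higher levels in resistant cells. ENST00000522414 had 75 and 194 counts in resistant cells and 0 in both wild-type libraries. Against the limit of 3 counts per library it was at least 34.9-fold higher (edgeR adjusted p = 0.358, DESeq2 adjusted p = 4.1e-04). The bound was 18.9-fold without resistant library 2 and 50.8-fold without resistant library 1. This isoform passed the filter through resistant cells alone. ENST00000522875 had 315 and 85 counts in resistant cells, against 0 and 4 in wild-type cells (edgeR adjusted p = 0.601, DESeq2 adjusted p = 0.018). Both were rare, with at most 0.422% of PVT1 counts in any library. In the other direction, ENST00000523190 had 877 and 1035 counts in resistant cells, against 1710 and 1697 in wild-type cells. The replicates of each group were close and the groups well apart, with a log2 fold change of -1.20 ± 0.34 (SE; by edgeR, adjusted p = 0.526; DESeq2 adjusted p = 0.0539). Of the remaining isoforms that the naming rule took up, ENST00000524165 had 486 and 881 counts in resistant cells against 326 and 460 in wild-type cells, ENST00000504719 had 79 and 903 against 282 and 204, and ENST00000517838 had 48 and 54 against 52 and 120.

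Reads within shared exons do not tell isoforms apart, so transcripts whose annotated starts lie within 500 bases of each other were summed into start classes. This lessens the problem without removing it, since isoforms of different classes share exons too. ENST00000513868 and ENST00000521951, of different PVT1 classes, share 540 exonic bases. PVT1 has 7 such classes. Their CPM values are scaled in a fit of their own and differ slightly from those of gene sums. The class at the upstream end of the gene, 6 transcripts with starts between 127794533 and 127794575, took 49.98% and 54.6% of PVT1 counts in resistant cells, against 74.8% and 48.7% in wild-type cells. Resistant minus wild type, its share differed by -9.46 percentage points, a value set by wild-type library 1: without that library it was 3.57. As a level the class had 993 and 739 CPM in resistant cells, against 1262 and 1144 CPM in wild-type cells, with no overlap (log2 fold change -0.47 ± 0.29, SE; by edgeR, adjusted p = 0.842).

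The second class, starting between 127795754 and 127796033 beside MIR1204, took 32.3% and 21.3% of PVT1 counts in resistant cells, against 13.3% and 34.8% in wild-type cells, so that the wild-type values enclosed the resistant ones. The class starting from 127890628 took 11.0% and 14.3% in resistant cells, against 0.105% and 9.13% in wild-type cells, and the low value was again wild-type library 1. The single-isoform class at 128009658, which is ENST00000523190 alone, had 23.3 and 28.5 CPM in resistant cells, against 58.0 and 62.9 CPM in wild-type cells. That is 2.33-fold lower in resistant cells (log2 fold change -1.22 ± 0.33, SE; by edgeR, adjusted p = 0.495; DESeq2 adjusted p = 5.6e-05), and between -1.37 and -1.08 with any library left out. For the same counts among transcripts DESeq2 gave an adjusted p of 0.0539. Both values come from the same counts in separate fits, so the class adds no evidence to the isoform. Joining starts within 100 bases gave 9 classes and within 1000 bases 7, and the upstream class was the same in each.

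**Figure D3:**
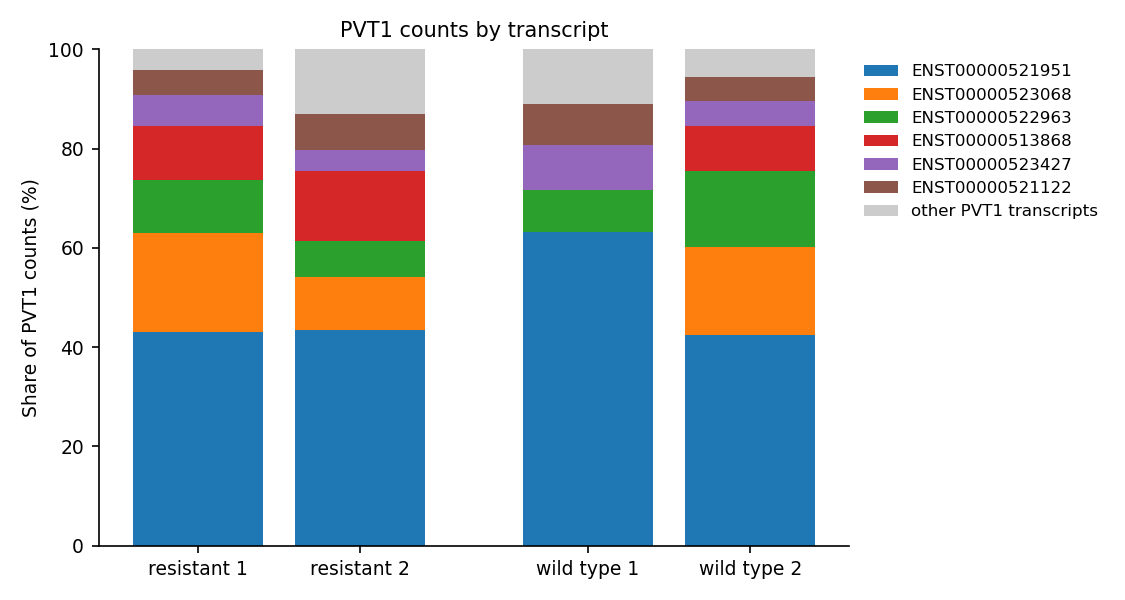
Share of PVT1 counts in percent for the 6 most abundant transcripts and for all others together, 1 stacked bar per library, resistant libraries left of wild-type libraries. ENST00000521951 takes 63.1% in wild-type library 1 and between 42.4% and 43.5% in the other 3 libraries, and ENST00000523068 and ENST00000513868 are missing from wild-type library 1 alone.

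Of the member start classes of all genes, 30 passed the filter, and 0 passed an adjusted p of 0.05, as did 0.00% of all 29239 classes. An unadjusted p under 0.05 was found for 4 that were lower and 3 that were higher in resistant cells, against 3.25% and 4.30% of all classes, and 7.55% had one in either direction. Without overlap 12 were lower and 3 higher, against 19.4% and 21.3% of all, and 15 in either direction, against 40.7%. A fold change below 0 was found for 23 of them, against 49.2% of all. DESeq2 called 7 of them, and 8.63% of all classes.

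CASC19 was led in each library by 1 of 2 isoforms. The leading isoform held 71.9% of CASC19 counts in resistant library 1 and 72.7% in wild-type library 1. In resistant library 2 and wild-type library 2 it held 34.0% and 34.4%. ENST00000641867 had 52227 and 0 counts in resistant cells, against 0 and 19911 in wild-type cells. ENST00000641309 had 0 and 4635 counts in resistant cells, against 55101 and 2680 in wild-type cells. Each was at 0 in a library where the other led, and the counts differed between replicates of a group as well as between groups. The 2 isoforms share 489 exonic bases, 56.5% of the shorter and 35.4% of the longer, and both start at CCAT1. ENST00000641733 had 809 and 2758 counts in resistant cells, against 1 and 15865 in wild-type cells.

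Summed into a start class, the 34 transcripts that start at CCAT1 had 63148 and 7561 counts in resistant cells, against 60761 and 44707 in wild-type cells. They made up 87.0% and 55.5% of CASC19 counts in resistant cells, against 80.1% and 77.3% in wild-type cells. In CPM the class had 1679 and 208 in resistant cells, against 2061 and 1657 in wild-type cells, so that the groups overlapped and resistant library 2 alone was low (log2 fold change -0.98 ± 1.07, SE; by edgeR, adjusted p = 0.917). The low CASC19 gene sum of resistant library 2 lay mostly in these transcripts.

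The rest of CASC19 was more even between replicates. All CASC19 transcripts outside that class summed to 252 and 165 CPM in resistant cells, against 509 and 482 CPM in wild-type cells, 2.38-fold lower in resistant cells by the ratio of means. This split was made after the values were seen and carries no test. The class starting at 127223666 (class 3 from the upstream end), with 3 transcripts, had 37.2 and 31.2 CPM in resistant cells, against 166 and 155 CPM in wild-type cells. It starts outside the CCAT1 interval but is not apart from it. Its most counted isoform, ENST00000642076, ends at 127218931, inside that interval. Replicates were close in both groups and the class was 4.69-fold lower in resistant cells, with a log2 fold change of -2.23 ± 0.31 (SE; by edgeR, adjusted p = 0.328; DESeq2 adjusted p = 1.2e-21). It stayed between -2.36 and -2.11 with any library left out. The class starting between 127203166 and 127203227 had 14.7 and 13.8 CPM in resistant cells, against 54.7 and 39.1 CPM in wild-type cells. That is 3.30-fold lower in resistant cells (log2 fold change -1.72 ± 0.37, SE, edgeR adjusted p = 0.410, DESeq2 adjusted p = 2.6e-06). Both classes were named after their values were seen, and they had the smallest edgeR p-values of the tested CASC19 classes. Their p-values and ranges therefore describe picked classes.

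Not every start of CASC19 separated the groups. The class at the upstream end of the gene, at 127227541, had 157 and 94.8 CPM in resistant cells, against 155 and 176 CPM in wild-type cells, and the groups overlapped (log2 fold change -0.40 ± 0.38, SE; by edgeR, adjusted p = 0.903). They also overlapped in the classes at 127209635, from 127205395 and from 127188120. In the class from 127202080 they did not, with 7.92 and 8.15 CPM in resistant cells, against 10.3 and 19.8 CPM in wild-type cells. The classes at 127198147 and from 127190842 had a count of 0 in resistant library 2, and 9.73 and 10.2 CPM in resistant library 1, against 30.8 to 34.7 CPM in the wild-type libraries, so that these groups did not overlap. Among single isoforms, ENST00000641704 had 0 counts in both resistant libraries, against 1175 and 773 in wild-type cells. Against the limit of 3 counts per library, which covers counting error only, that is at least 417-fold lower (edgeR adjusted p = 0.329, DESeq2 adjusted p = 4.0e-11). ENST00000641704 passed the filter through wild-type cells alone. It belongs to the class that starts at CCAT1, whose levels overlapped between the groups. ENST00000642018 had 131 and 155 counts in resistant cells, against 595 and 561 in wild-type cells (log2 fold change -2.38 ± 0.40, SE; by edgeR, adjusted p = 0.335). A member of the 127223666 class, chosen here after its values were seen, was ENST00000642076 with 972 and 623 counts in resistant cells against 2990 and 2826 in wild-type cells. ENST00000641919, the isoform besides ENST00000641867 with a fold change above 0, had 0 and 327 counts in resistant cells against 49 and 0 in wild-type cells, and so rested on a single library of each group. It is the whole of the class at 127144417, the tested CASC19 class with a fold change above 0 (log2 fold change 2.43 ± 3.27, SE; by edgeR, adjusted p = 0.940).

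**Figure D4:**
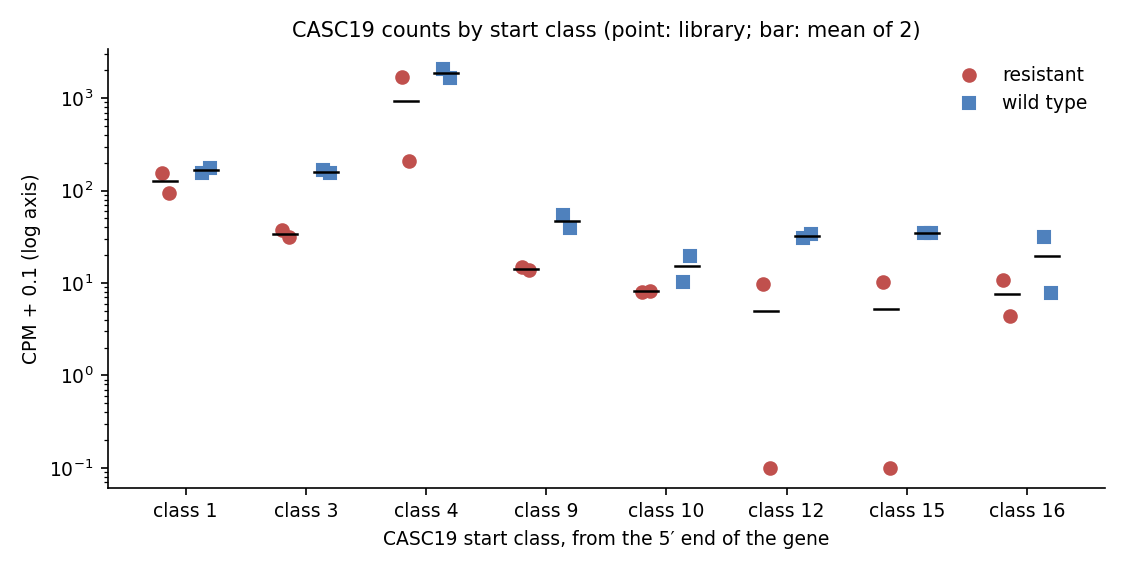
Levels of the most abundant CASC19 start classes in CPM + 0.1 on a log axis, numbered from the upstream end of the gene, with points for libraries and bars for means (n = 2), resistant left of wild type. Class 4, which starts at CCAT1, has 208 CPM in resistant library 2 and at least 1657 CPM in the other 3 libraries, and class 3 has 31.2 and 37.2 CPM in resistant cells against 155 and 166 CPM in wild-type cells.

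PCAT1 was led in each library by ENST00000646670, but by very different margins. It had 1633 and 7350 counts in resistant cells, against 9051 and 2759 in wild-type cells, or 26.0% and 84.0% of PCAT1 in resistant cells and 62.1% and 40.6% in wild-type cells. The order of the libraries followed neither group. ENST00000521586 had 891 and 382 counts in resistant cells, against 289 and 1730 in wild-type cells, and ENST00000645490 had 363 and 368, against 837 and 374. Of the PCAT1 isoforms, 8 had counts in a single library, among them 1 with 1192 in resistant library 1 and 1 with 1429 in wild-type library 2. Another pair was counted in both libraries of 1 group and in neither library of the other. ENST00000644627 had 694 and 509 counts in resistant cells and 0 in both wild-type libraries, at least 154-fold higher against the limit of 3 counts per library (by edgeR, adjusted p = 0.329; DESeq2 adjusted p = 7.6e-09). ENST00000647190 had 0 counts in both resistant libraries, against 1302 and 230 in wild-type cells, at least 321-fold lower (edgeR adjusted p = 0.372, DESeq2 adjusted p = 3.5e-06). That bound was 104-fold without wild-type library 1 and 538-fold without wild-type library 2. Each holds all the counts of its start class, and each passed the filter only through the group in which it was counted. ENST00000645130 had 6 and 63 counts in resistant cells, against 0 and 10 in wild-type cells.

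CASC8 came almost wholly from its inner start at 127421374, which took 93.3% and 92.8% of CASC8 counts in resistant cells, against 87.7% and 93.9% in wild-type cells. At the isoform level the same counts looked different. ENST00000501396 had 1533 and 360 counts in resistant cells, against 2341 and 1237 in wild-type cells, and ENST00000523825 had 0 and 1219 in resistant cells and 0 in both wild-type libraries. The 789 bases of ENST00000523825 lie wholly within the 930 bases of ENST00000501396, so that the low value of the longer isoform and the high value of the shorter one in resistant library 2 concern the same stretch. ENST00000502082 had 0 and 123 counts in resistant cells, against 329 and 80 in wild-type cells, and ENST00000502056 had 110 and 0, against 0 and 0. ENST00000523825 and ENST00000502056 did not pass the filter and were named after their values were seen.

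The 3 CASC11 isoforms share a start and were scarce throughout. ENST00000518376 had 137 and 78 counts in resistant cells, against 77 and 100 in wild-type cells. ENST00000519071 had 0 and 147 counts in resistant cells, against 44 and 72 in wild-type cells, and ENST00000502463 had 17 and 58, against 62 and 0. None of the 3 separated the groups.

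How far the isoform make-up of a gene differed between any 2 libraries was measured as the percent of its counts that would have to sit on other isoforms for the libraries to match. For PVT1 this was 15.0% between the resistant libraries and 33.7% between the wild-type libraries, and between 7.02% and 33.6% across groups. Pairs that included wild-type library 1 gave 30.8% to 33.7%. CASC19 gave 87.3% between the resistant libraries and 77.6% between the wild-type libraries, and 50.1% to 90.2% across groups. PCAT1 gave 59.5% and 47.3% within resistant and within wild-type cells, and 30.8% to 57.4% across groups. CASC8 gave 78.8% between the resistant libraries and 6.25% between the wild-type libraries. CASC11, with 154 to 283 counts per library, gave 61.4% and 33.9% within resistant and within wild-type cells. In none of the 5 genes were all pairs across groups farther apart than both pairs within groups. Over the 1733 genes with at least 5 isoforms and 1000 counts per library the median was 18.2% within groups and 19.8% between them.

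**Figure D5:**
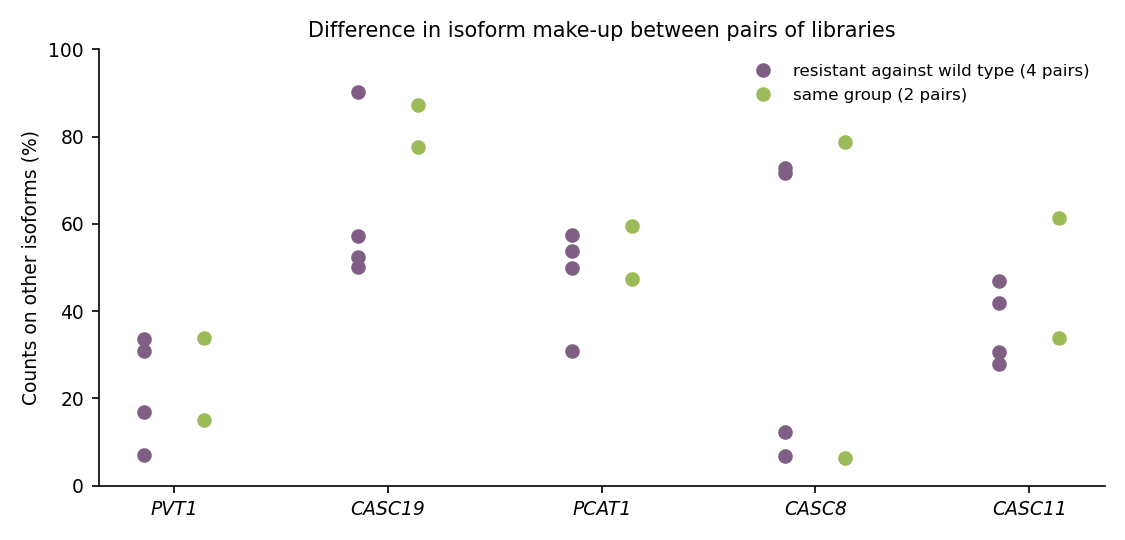
Percent of a gene's counts on other isoforms for each pair of libraries, with pairs across groups left of pairs within a group, for the 5 genes. Within-group pairs of CASC19 reach 77.6% and 87.3%, inside the range of 50.1% to 90.2% across groups.

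Single transcripts also differed between replicates. Of the member transcripts with over 100 counts in at least 1 resistant library, 19 of 48 (39.6%) had 0 in the other resistant library, against 12.1% over the whole table. In wild-type cells it was 19 of 56 (33.9%), against 12.9% over the whole table. PVT1 in resistant cells had 1 of 14 such transcripts, and CASC19 10 of 20.

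Other genes close to MYC were nearly silent in this table of noncoding transcripts. Of 43 further genes within 2000000 bases of the MYC start, 16 were in the table, 9 of those had a count of 0 in every library and 5 could be tested. None passed an adjusted p of 0.05, and 1 had an unadjusted p under 0.05. That was MYC itself, represented by the single noncoding transcript ENST00000520751 with 128 and 117 counts in resistant cells, against 269 and 190 in wild-type cells. It had 3.41 and 3.20 CPM in resistant cells, against 9.10 and 6.98 CPM in wild-type cells (log2 fold change -1.28 ± 0.40, SE; by edgeR, adjusted p = 0.524), and says nothing about the MYC messenger RNA, which was not analysed here. FAM84B, whose exons overlap those of PCAT1 on the other strand, had 2.55 and 1.28 CPM in resistant cells, against 2.16 and 12.2 CPM in wild-type cells, with the high value in wild-type library 2 alone.

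Of 14 lncRNAs linked to MYC in the literature, 13 were tested and 0 passed, with 5 fold changes above 0 and 8 below, and a median log2 fold change of -0.46 against 0.01 over all genes. GAS5, a snoRNA host lncRNA associated with growth arrest, had 1220 and 1289 CPM in resistant cells, against 1402 and 1910 CPM in wild-type cells (edgeR adjusted p = 0.749). SNHG16, another snoRNA host, had 232 and 204 CPM in resistant cells, against 271 and 365 CPM in wild-type cells (edgeR adjusted p = 0.694). Of 28 MYC partners and target genes, present here as noncoding transcripts, 26 were tested and 0 passed, with 15 fold changes above 0 and 11 below and a median of 0.19. LDHA, which encodes a lactate dehydrogenase subunit, had 2690 and 2453 CPM in resistant cells, against 3004 and 3284 CPM in wild-type cells. NPM1, which encodes the nucleolar protein nucleophosmin, had 478 and 655 CPM in resistant cells, against 465 and 357 CPM in wild-type cells. DESeq2 called 1 gene of this list, SHMT2 (mitochondrial serine hydroxymethyltransferase), with 30.8 and 32.7 CPM in resistant cells, against 89.1 and 90.4 CPM in wild-type cells (edgeR adjusted p = 0.349).

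The lncRNA genes whose levels over the 4 libraries ran most like those of PVT1 were AC103923.1, AL359258.1 and LINC00513, with root mean square distances of 0.05, 0.06 and 0.10 in centred log2 CPM, among 734 genes with a median distance of 0.60. None of the neighbours of PVT1 ran close to it: CASC8 ranked 333, PCAT1 433 and CASC19 520. CASC11 was below the level needed to enter.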

How the data were processed

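Total RNA from 4 HepG2 libraries was sequenced as paired 150-base Illumina reads, from 2 µg each, per the labels. The authors deposited estimated counts per transcript in 1 table, unnormalized; the unit was recognised from whole numbers with differing totals. How reads were aligned and counted was not given in the sources used here. A mouse build, mm9, is named in the submitters' processing notes, although the identifiers are human. Transcripts were assigned to genes with GENCODE release 29 on GRCh38, which named 84072 of 103347 Ensembl identifiers and gave 29585 genes. The CCAT1 interval is from RefSeq.

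Deposited counts were summed per gene or start class, and transcript counts were rounded where not whole. All were filtered (filterByExpr, minimum count 10), TMM-scaled and tested over the whole table with edgeR 4.0.16 (quasi-likelihood, Benjamini-Hochberg, threshold 0.05; R 4.3.3). DESeq2 1.42.0 and limma-voom 3.58.1 were alternatives, with library totals, leave-one-out, other joining distances and a replicate block. The start-class fit was added after the transcript counts were seen. The scripts were tested on simulated data. The common dispersion was 0.542 for genes and 0.941 for transcripts, and a p that misses the threshold does not show equal levels. An exact permutation test of 2 against 2 libraries cannot go below 0.33.

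Named transcripts are, among those tested, for PVT1 the 6 of highest mean and up to 4 per direction of smallest p, for each other gene the 3 of highest mean and up to 2 per direction; exceptions are marked. The members and lists were chosen with earlier results of these data known. No sequence is shown.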

Additional observations from a re-analysis of the deposited data

How the results depend on the processing

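No gene, transcript or start class passed in edgeR under TMM, DESeq2 size factors, library totals, no filter, a replicate block or with any library left out, nor under limma-voom. DESeq2's own test called 632 genes, 2261 transcripts and 2522 start classes, among them 12 member transcripts and 7 member start classes, and no member gene. The labels do not say that the numbers 1 and 2 pair libraries, and same-numbered libraries did not deviate together (r = -0.019 over genes, 0.0084 over transcripts). With the replicate block the gene log2 fold changes were -0.28 for PVT1, -1.46 for CASC19, -0.81 for PCAT1, -0.55 for CASC8 and -0.15 for CASC11. Leaving out the assembled transcripts was run for transcripts only, since gene and class sums never hold them.

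With a library left out, where the lone library is assumed to vary like the other group, log2 fold changes ranged from -0.60 to 0.31 for CASC11, the single gene to change sign. Isoforms that changed sign ranged from -0.60 to 16.19 (ENST00000523068), -0.021 to 15.79 (ENST00000513868), -1.35 to 0.12 (ENST00000522963), -0.11 to 0.81 (ENST00000524165) and -2.01 to 1.55 (ENST00000504719) in PVT1. In CASC19 they ranged from -16.47 to 17.55 (ENST00000641867), -3.76 to 10.36 (ENST00000641733) and -7.71 to 10.25 (ENST00000641919). In PCAT1 they ranged from -2.22 to 0.28 (ENST00000646670), -1.89 to 0.82 (ENST00000521586) and -0.19 to 8.04 (ENST00000645130), and in CASC11 from -0.54 to 0.22 (ENST00000518376), -9.02 to 0.98 (ENST00000519071) and -1.20 to 8.12 (ENST00000502463). The share of the upstream PVT1 class, resistant minus wild type, ranged from -22.5 to 3.57 percentage points. Values against a group at 0 depend on the prior count and are no estimate of size.

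Other settings reversed few isoforms. Library totals gave 0.018 for ENST00000518376, 0.067 for ENST00000519071 and 0.075 for ENST00000502463. Limma-voom gave -0.22 for ENST00000504719, 1.98 for ENST00000502463 and 2.99 for ENST00000641733, and the replicate block gave -0.21, 1.67 and 2.59 for the same 3. The cause was not tested.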
